A study of Mus musculus with 4 samples.

Results

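The proteasome is the barrel-shaped protease that degrades ubiquitin-tagged proteins. The genes of its subunits and assembly factors were examined in libraries labelled as TAMs (tumor-associated macrophages). Genes were taken as members when the deposited identifier belonged to a protein-coding gene whose symbol starts with Psm, followed by a letter from a to g and a number. The inducible subunits Psmb8, Psmb9 and Psmb10 were left out and are described beside the members. The rule gave 45 of the 54532 genes in the count table and used no measured value. The members were the genes of the 20S alpha ring (8), the 20S beta ring (8), the 19S ATPase ring (6), the rest of the 19S base (3), the 19S lid (8), the 19S assembly chaperones (3), the proteasome activators and inhibitor (5) and the 20S assembly chaperones (4).

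The tumors were grown from NB9464, a mouse line of MYCN-amplified neuroblastoma, implanted in mice labelled myeloid Syk WT or KO that received no treatment, and they were removed on day 40. The KO mice are described as carrying floxed Syk and Cre recombinase driven by the lysozyme M gene, which deletes Syk in macrophages and other myeloid cells such as neutrophils, and the C57BL/6 mice were a few weeks old at injection. Magnetic beads for CD11b and F4/80 were used to isolate the TAMs, and their polyA RNA went into 2 libraries labelled SYK WT (M7 and M8) and 2 libraries labelled SYK KO (M9 and M10). The labels also name BMDMs (bone marrow-derived macrophages) as the source of the RNA, and the table's name mentions adoptive transfer. Nothing in the labels says whether the libraries of a genotype came from separate mice, so p-values measure the spread between these libraries.

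Proteins enter the proteasome through the 19S regulatory particle, where lid and base subunits bind and remove ubiquitin and a ring of ATPases unfolds the substrate. They are cut inside the 20S core, whose outer alpha rings gate the entry and whose inner beta rings hold the catalytic subunits encoded by Psmb5, Psmb6 and Psmb7. In immune cells and under interferon, Psmb8, Psmb9 and Psmb10 replace these catalytic subunits in the immunoproteasome, and the activator encoded by Psme1 and Psme2 can cap the core in place of the 19S particle. Both changes are known for their part in producing peptides for MHC class I.

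Promoters with a motif match are shown for Psme1 and Psmg4, which stood above the other subunits, for Psme4, which stood below them, and for the catalytic subunits Psmb5 and Psmb6. They were picked with these changes known, and other members with the same motifs are named below. RefSeq windows of GRCm38.p6 (250 bases before to 50 after the start site) were matched for 37 of the 45 members, with 40 windows. The first 2 sequences below carry GAAA followed, after 2 free bases, by GAAA, a spacing of half-sites known from interferon-responsive promoters, and the other 3 carry a match to TGACNNNGC, the core of the antioxidant response element that NFE2L1 and NFE2L2 bind. Capitals mark the match on either strand, and each window is cut to 150 bases before and 30 after the start site.
Psme1 promoter, chr14:55578344-55578523, plus strand: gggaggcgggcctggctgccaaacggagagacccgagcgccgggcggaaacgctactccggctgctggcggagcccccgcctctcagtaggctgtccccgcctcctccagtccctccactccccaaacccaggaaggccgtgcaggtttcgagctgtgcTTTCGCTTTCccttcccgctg
Psmg4 promoter, chr13:34162814-34162993, plus strand: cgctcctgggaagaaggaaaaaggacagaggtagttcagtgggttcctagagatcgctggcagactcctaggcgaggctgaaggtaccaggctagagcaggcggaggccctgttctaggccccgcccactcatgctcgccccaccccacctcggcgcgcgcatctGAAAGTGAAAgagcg
Psmb5 promoter, chr14:54617966-54618145, minus strand: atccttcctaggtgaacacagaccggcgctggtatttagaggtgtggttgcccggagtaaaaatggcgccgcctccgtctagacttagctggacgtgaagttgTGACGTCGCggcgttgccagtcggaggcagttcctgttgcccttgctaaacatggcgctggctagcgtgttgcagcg
Psmb6 promoter, chr11:70525207-70525386, plus strand: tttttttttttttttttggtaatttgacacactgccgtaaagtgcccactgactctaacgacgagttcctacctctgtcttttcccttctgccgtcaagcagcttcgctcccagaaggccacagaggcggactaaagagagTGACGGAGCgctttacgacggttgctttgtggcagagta
Psme4 promoter, chr11:30771625-30771804, plus strand: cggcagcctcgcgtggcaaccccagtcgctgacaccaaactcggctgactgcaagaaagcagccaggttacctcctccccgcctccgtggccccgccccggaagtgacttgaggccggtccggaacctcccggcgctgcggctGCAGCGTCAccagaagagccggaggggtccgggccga

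The match to the spaced GAAA pair began at base 10 of the transcript in Psme1 and at base 16 in Psmg4. It was present in 5 of the 40 member windows (12.5%; Psme1, Psmg4, Psmb3, Psmd4 and Psmd9) and in 3.44% of all 32851 windows. In a scaling to the 20S and 19S subunits, described below, Psmb3, Psmd4 and Psmd9 were not called, at log2 fold changes of 0.18, -0.40 and -0.13. TGACNNNGC was present in 6 member windows (15.0%; Psmb5, Psmb6, Psmc6, Psmd9, Psmd12 and Psme4) against 12.4% of all windows. In the scaling to the 20S and 19S subunits, Psmc6 and Psme4 were called lower and the others with this motif were not called. CCAAT, the box bound by NF-Y, was present in 13 member windows (32.5%) against 37.4%. TGACG, a half-site of the cAMP response element that can overlap TGACNNNGC, was present in 19 (47.5%) against 20.8%. Both strands were searched. The window of Psma4, which also stood above the other subunits, held none of the 4 motifs, and the windows of Psmb8, Psmb9 and Psmb10 held no spaced GAAA pair. These letters are a description of the windows, and no binding was measured.

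Libraries held between 20755886 and 23518045 counts, and 43 of the 45 members passed edgeR's expression filter, with at least 165 counts in every library. Values are CPM, that is counts scaled to a common library total, after TMM normalization by edgeR, whose factors were 1.22 (M7), 1.19 (M8), 0.876 (M9) and 0.787 (M10). Between the 2 libraries of a genotype, the chi-square of the counts divided by its degrees of freedom was 7.32 (SYK WT) and 30.5 (SYK KO) over the members, and 36.8 and 128 over all genes, so the libraries of a genotype were not copies of each other. With 2 libraries on each side the lowest p of an exact permutation test (two-sided) is 0.33, and the adjusted p-values come from edgeR's model of error across genes.

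Under TMM scaling the targeted gene went against the labels. Syk had 765, 569, 4033 and 2944 counts in M7, M8, M9 and M10, a log2 fold change of 2.80 (SE 0.194, adjusted p = 0.000674, edgeR). It was thus higher in both libraries labelled SYK KO, and directions below follow the labels. Scaled to the macrophage markers given next, Syk was at -0.00595 (adjusted p = 0.992, edgeR). Scaled to the pan-leukocyte markers it was at -0.83 (adjusted p = 0.0304, edgeR). A count for the whole gene cannot show whether the floxed exon was missing. The libraries also differed in their cell markers. Of 10 macrophage markers, all were higher in M9 and M10, with a summed level of 803 to 1135 CPM in SYK WT and 5702 to 9531 CPM in SYK KO, and the 6 pan-leukocyte markers rose from 259 to 349 CPM to 3025 to 4221 CPM. Fibroblast markers (5 of 8 lower) summed to 12626 to 14531 CPM in SYK WT and 4039 to 4958 CPM in SYK KO. The fibroblast sum was thus above the macrophage sum in both SYK WT libraries and below it in both SYK KO libraries. In the other lists, 3 of 8 endothelial markers were lower, all 5 T cell markers, 5 of 6 neutrophil markers, 3 of 5 dendritic cell markers, 1 of 5 B cell markers (Cd79b) and 6 of 8 cell cycle genes were higher. Of all genes tested, 22.7% were called higher and 16.7% lower. Of 5 plasma cell markers, Jchain and Derl3 were higher and Sdc1 was lower, and of 7 tumor cell markers Mycn was higher. Their summed level was 210 to 331 CPM over the 4 libraries, most of it from Hand2, while Th and Dbh were at 0 in every library. Mitochondrial genes took 2.20%, 2.34%, 6.00% and 15.9% of the counts in M7, M8, M9 and M10. The part of cell makeup and RNA quality in the results on the proteasome was not tested, and in bulk samples fewer cells of a type and less RNA per cell cannot be told apart.

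Relative to the bulk of transcripts, most proteasome genes were higher in SYK KO than in SYK WT. Of the 43 members tested, 29 were called higher at an adjusted p under 0.05 in edgeR's quasi-likelihood test, while 22.7% of the 16451 genes tested were called higher. No member was called lower, by this test or by the Wald test of DESeq2, and none was lower at an unadjusted p under 0.05, while 16.7% of all genes tested were called lower. Both SYK KO libraries lay above both SYK WT libraries for 40 members, against 38% of all genes tested, and the median log2 fold change of the members was 0.70 (1.62-fold), against 0.016 for all genes tested. The sign of the change followed the scaling. A scaling moves all genes nearly alike, so the distance between the member median and the median gene (0.68 under TMM, 0.69 to 0.72 under 5 others) is set almost entirely by the counts and is no sign of stability.

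Scaled to library size alone, the median of the members was 0.17 and that of all genes -0.52. In that scaling only Psma4, Psme1 and Psmg4 of the members were called higher, while Psme4 was called lower. Of all genes tested, 10.2% were called higher and 32.9% lower there. Scaled to the 10 macrophage markers, the member median was -2.06 (all genes -2.78), and scaled to the 6 pan-leukocyte markers it was -2.88 (all genes -3.60), with all 43 members called lower in each case. Most genes were called lower there as well, 87.0% of all genes tested with the macrophage markers and 92.8% with the pan-leukocyte markers. As a plain share of the counts, the members took 0.417%, 0.360%, 0.465% and 0.396% in M7, M8, M9 and M10, and these shares overlapped between genotypes (exact permutation p = 0.667). The count also rested on both SYK WT libraries: 12 members were called higher without M7 and 2 (Psme1 and Psmg4) without M8, when all genes called higher fell to 2094 and 1478.

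**Figure D1:**
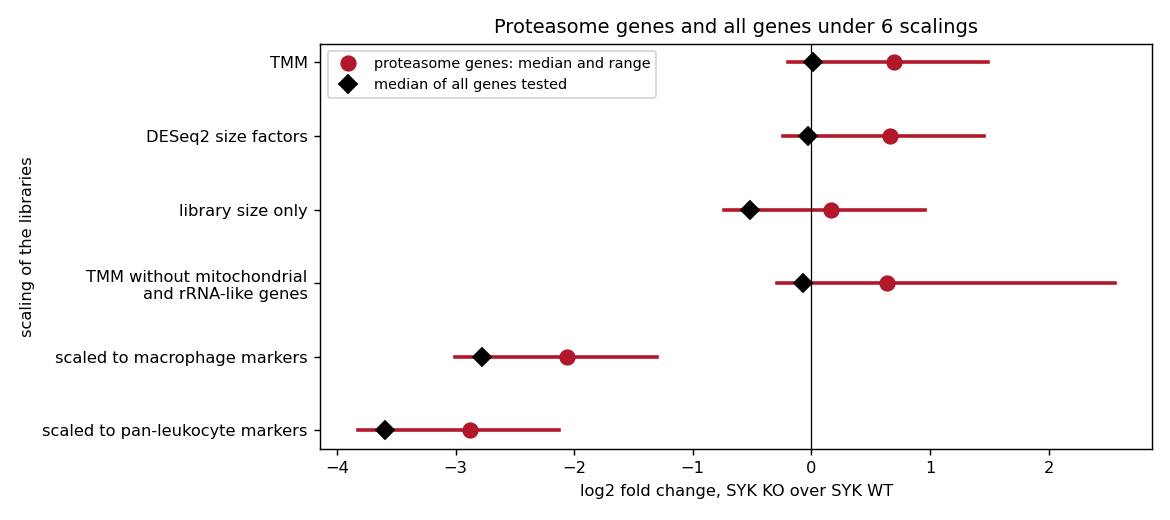
Median and range of the log2 fold changes of the tested proteasome genes (red point and line) and the median of all genes tested (black diamond) under 6 scalings of the libraries, SYK KO over SYK WT. The zero moves with the scaling, and since a scaling moves all genes nearly alike, the member median lies 0.68 to 0.72 above the median gene in each row; the longer line in the row without mitochondrial and rRNA-like genes comes from Psma8, which passed the filter only there.

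The alpha ring, whose N-terminal tails form the gate of the core, had all 7 tested genes called higher, with a median log2 fold change of 0.85. Of all genes tested, 22.7% were called higher. Psma4 changed most, from 74.4 and 62.6 CPM in M7 and M8 to 169 and 143 CPM in M9 and M10 (log2 fold change 1.19, SE 0.177, adjusted p = 0.00427). Psma7 changed least, from 116 and 103 CPM to 197 and 171 CPM (log2 fold change 0.75, SE 0.168, adjusted p = 0.0155). In both genes each SYK KO library lay above each SYK WT library, as in the other 5 alpha genes tested, Psma1, Psma2, Psma3, Psma5 and Psma6, whose log2 fold changes lay between 0.77 (Psma3) and 1.15 (Psma2). Such a separation held for 38% of all genes tested. Psma8, the alpha subunit of testis, did not pass the filter, with 6, 3, 35 and 9 counts. Psma3 shares a stretch of 685 identical bases with the pseudogene Gm13835, which held 525, 454, 783 and 440 counts, so reads could be divided between them. Summing the counts of all such similar genes with their members left the number of members called higher at 29.

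The beta ring had 6 of 7 tested genes called higher, against 22.7% of all genes tested, with a median log2 fold change of 0.76. Psmb6, the caspase-like catalytic subunit, changed most, from 78.1 and 71.7 CPM in M7 and M8 to 161 and 140 CPM in M9 and M10 (log2 fold change 1.01, SE 0.161, adjusted p = 0.00522). Psmb7, the trypsin-like subunit, had 110, 84.1, 182 and 147 CPM in M7, M8, M9 and M10 (log2 fold change 0.76, SE 0.204, adjusted p = 0.0279), and exons of Nek6 overlap it on the opposite strand over 405 bases. Psmb5, the chymotrypsin-like subunit and main target of bortezomib, had 64.5, 58.8, 111 and 80.8 CPM (log2 fold change 0.64, SE 0.197, adjusted p = 0.0422). The 2 SYK KO libraries differed more in Psmb5 than in Psmb6, and the call for Psmb5 was lost with the Wald test of DESeq2 (adjusted p = 0.0519), with DESeq2 size factors (0.0652) and without mitochondrial and rRNA-like genes (0.0663). Psmb4, a structural subunit, was the gene that missed the threshold (log2 fold change 0.56, SE 0.187, adjusted p = 0.0537), with 140 and 111 CPM in SYK WT and 199 and 172 CPM in SYK KO. The remaining structural subunits Psmb1, Psmb2 and Psmb3 were called higher, with log2 fold changes of 0.86, 0.65 and 0.88. Psmb11, the subunit of the thymic proteasome, had 4 and 6 counts in SYK WT and 0 in both SYK KO libraries, where 3 counts, the limit that a count of 0 allows for counting error, equal 0.146 and 0.163 CPM.

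The 19S particle was less even. Of its 17 genes, 10 were called higher, with a median of 0.68, against 13 of 14 and 0.81 for the 20S core. The share over all genes tested was 22.7%. In the ATPase ring, 4 of 6 genes were called higher. Psmc2 changed most, from 59.1 and 50.3 CPM in M7 and M8 to 105 and 99.3 CPM in M9 and M10 (log2 fold change 0.90, SE 0.159, adjusted p = 0.00731). Psmc1, Psmc3 and Psmc4 were the other ATPase genes called higher, with log2 fold changes of 0.78, 0.69 and 0.52. The call for Psmc4 was lost with the Wald test of DESeq2 and without mitochondrial and rRNA-like genes. Psmc6 had 110, 118, 128 and 114 CPM in M7, M8, M9 and M10, and its genotypes overlapped (log2 fold change 0.09, SE 0.155, adjusted p = 0.688). Psmc5 had the highest level per kb of exon among the members, 147 CPM per kb in SYK WT and 211 CPM per kb in SYK KO, and missed the threshold (log2 fold change 0.52, SE 0.190, adjusted p = 0.0707).

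In the rest of the base, Psmd1, the large scaffold subunit, went from 122 and 103 CPM to 207 and 218 CPM (log2 fold change 0.92, SE 0.168, adjusted p = 0.00816). Psmd2, the other scaffold, which receives ubiquitin-like domains of shuttle factors, had 220 and 203 CPM in SYK WT and 231 and 251 CPM in SYK KO (log2 fold change 0.19, SE 0.162, adjusted p = 0.392). The ubiquitin receptor Psmd4 was not called either (log2 fold change 0.31, SE 0.174, adjusted p = 0.204). In the lid, 5 of 8 genes were called higher, against 22.7% of all genes tested. Psmd13 changed most, from 65.7 and 62.1 CPM to 113 and 145 CPM (log2 fold change 1.01, SE 0.178, adjusted p = 0.00719), with exons of Sirt3 overlapping it on the opposite strand over 342 bases. Psmd6 changed least, from 59.7 and 58.2 CPM to 71.9 and 63.9 CPM (log2 fold change 0.20, SE 0.152, adjusted p = 0.321). Psmd7, Psmd8, Psmd11 and Psmd12 were also called higher, with log2 fold changes of 0.85, 0.95, 0.70 and 0.68. Psmd12 had 153, 123, 187 and 256 CPM in M7, M8, M9 and M10, so its SYK KO libraries differed by more than its SYK WT libraries (adjusted p = 0.0475). Its call was lost with DESeq2 size factors, without mitochondrial and rRNA-like genes, and with a filter of at least 10 counts in every library. Psmd3 (log2 fold change 0.30, adjusted p = 0.151) and Psmd14, the deubiquitinase of the lid (0.50, SE 0.174, adjusted p = 0.0610), were not called. In both, each SYK KO library lay above each SYK WT library, as in 38% of all genes tested.

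**Figure D2:**
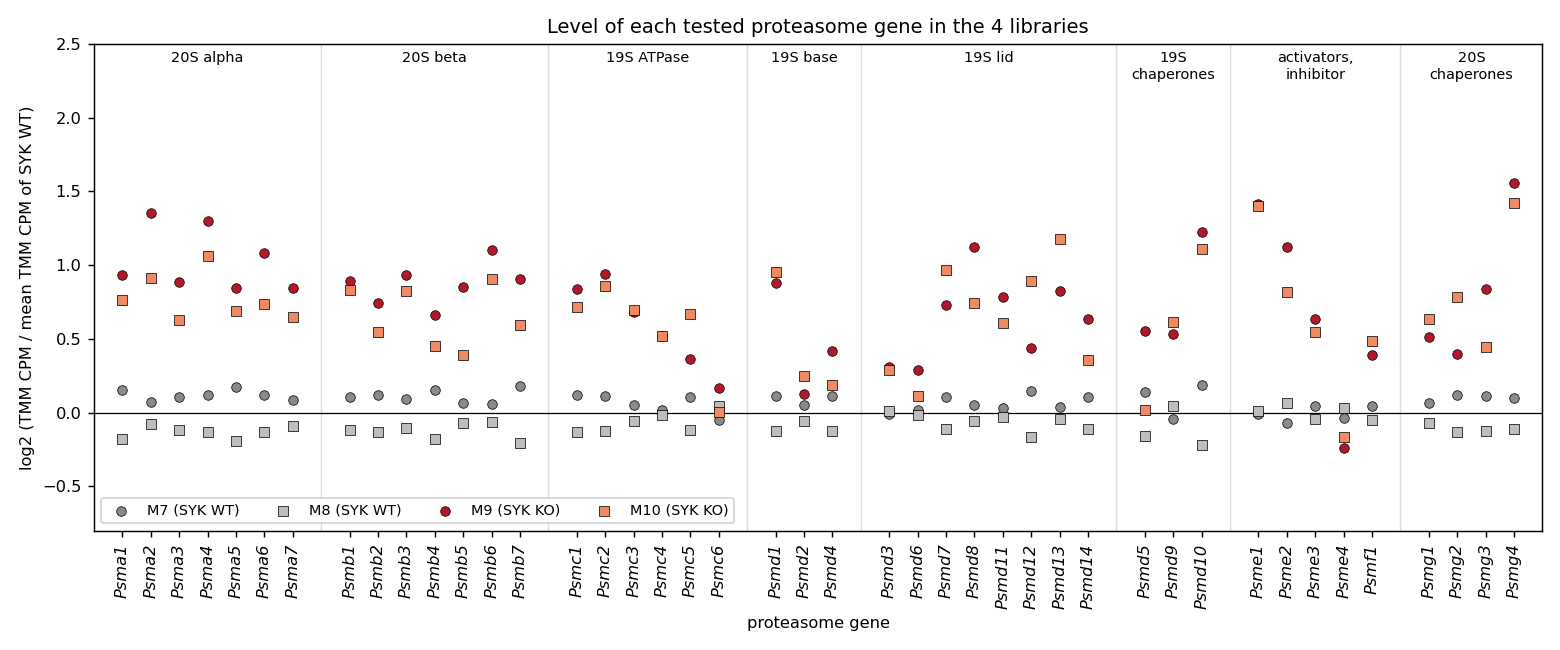
Level of each of the 43 tested proteasome genes in the 4 libraries, as log2 of TMM CPM over the mean of the SYK WT libraries, by sub-complex; grey points are SYK WT and red or orange points SYK KO. Both SYK KO libraries lie above both SYK WT libraries for 40 genes (against 38% of all genes tested), the genotypes overlap for Psmc6 and Psmd5, and Psme4 lies below.

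The 3 chaperones that hold the ATPases before assembly differed from each other. Psmd10, also known as gankyrin, went from 14.2 and 10.7 CPM in M7 and M8 to 29.1 and 26.9 CPM in M9 and M10 (log2 fold change 1.17, SE 0.217, adjusted p = 0.00851). Psmd9 went from 22.1 and 23.4 CPM to 32.9 and 34.8 CPM (log2 fold change 0.57, SE 0.163, adjusted p = 0.0330), with exons of the lincRNA Gm26745 overlapping it on the opposite strand over 1849 bases, and its adjusted p was 0.0898 with the Wald test of DESeq2 and 0.0569 without mitochondrial and rRNA-like genes. Psmd5 had 41.9, 34.0, 55.6 and 38.4 CPM, its genotypes overlapped, and it was not called (log2 fold change 0.31, SE 0.226, adjusted p = 0.315).

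Among the 20S chaperones, which guide the alpha ring into place, Psmg4 had the largest change of all members tested. It went from 7.77 and 6.71 CPM in M7 and M8 to 21.3 and 19.4 CPM in M9 and M10 (log2 fold change 1.49, SE 0.225, adjusted p = 0.00443). The other chaperones of this group were not called. Psmg1 had 11.8, 10.8, 16.1 and 17.5 CPM in M7, M8, M9 and M10 (log2 fold change 0.57, SE 0.214, adjusted p = 0.0760), and its partner Psmg2 had 20.01, 16.9, 24.3 and 31.7 CPM (log2 fold change 0.60, SE 0.213, adjusted p = 0.0655). Psmg3, the partner of Psmg4, had 11.1, 9.40, 18.4 and 13.9 CPM (log2 fold change 0.66, SE 0.249, adjusted p = 0.0793). In all 4 of these genes both SYK KO libraries lay above both SYK WT libraries, as in 38% of all genes tested. Pomp, the maturation factor that enters with the beta subunits and is outside the members, rose from 72.0 and 59.0 CPM to 187 and 139 CPM (log2 fold change 1.31, SE 0.208, adjusted p = 0.00507).

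The activators went apart. Psme1 and Psme2, which encode the alternating subunits of the interferon-inducible cap, were both called higher. Psme1 went from 63.5 and 64.5 CPM in M7 and M8 to 170 and 169 CPM in M9 and M10 (log2 fold change 1.41, SE 0.149, adjusted p = 0.00159). Psme2 went from 42.1 and 46.1 CPM to 96.0 and 77.6 CPM (log2 fold change 0.98, SE 0.172, adjusted p = 0.00721), and its close copy Psme2b (99.4% identity over 794 bases) held between 11 and 29 counts. Psme3, the related activator of the nucleus, went from 75.6 and 71.1 CPM to 114 and 107 CPM (log2 fold change 0.59, SE 0.148, adjusted p = 0.0224). Psme4, a single-chain nuclear activator linked to histone degradation, had 80.6 and 84.6 CPM in SYK WT and 70.2 and 73.6 CPM in SYK KO. It was the tested member with both SYK KO libraries below both SYK WT libraries, a pattern that 6117 of all 16451 genes tested showed. Psme4 did not pass the test (log2 fold change -0.20, SE 0.145, adjusted p = 0.308). Psmf1, which encodes an inhibitor of the core, had 30.5, 28.6, 38.7 and 41.4 CPM (log2 fold change 0.44, SE 0.158, adjusted p = 0.0682). The ratio of Psme1 to Psme4 counts, which no scaling changes, was 0.787 and 0.763 in M7 and M8 and 2.43 and 2.29 in M9 and M10.

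To compare the members with one another, libraries were scaled to the geometric mean of the 31 tested 20S and 19S subunits and the test across all genes was repeated. In this scaling 9.53% of all genes were called higher and 40.5% lower, while 3 and 4 of the 43 members were. The 31 subunits are themselves members, Psma4, Psmc6, Psmd2 and Psmd6 among them, so their changes are centered near 0 by construction. The low number of member calls is therefore no result about the members. Psmg4 (relative log2 fold change 0.79, SE 0.242, adjusted p = 0.0328), Psme1 (0.70, SE 0.169, adjusted p = 0.0145) and Psma4 (0.48, SE 0.161, adjusted p = 0.0434) rose more than the core proteasome. Psme4 (relative log2 fold change -0.91, SE 0.179, adjusted p = 0.00699), Psmc6 (-0.63, SE 0.175, adjusted p = 0.0241), Psmd2 (-0.51, SE 0.171, adjusted p = 0.0432) and Psmd6 (-0.50, SE 0.165, adjusted p = 0.0407) fell below it. The median of all genes tested was -0.69 in this scaling. Psmc6, Psmd2 and Psmd6 thus lay above the median gene, and Psme4 lay below it. The remaining 36 members did not pass this test. Their relative log2 fold changes lay between -0.41 (Psmd3, 95% interval -0.80 to -0.0081, adjusted p = 0.0811) and 0.47 (Psmd10, 95% interval -0.029 to 0.98, adjusted p = 0.101). A missed threshold does not show that these genes kept the ratio of the core. The calls rested on both SYK WT libraries, since without M7 only Psme4 was called and without M8 none of the 43 was. Without M9 the calls were Psmd13, Psme1 and Psmg4 (higher) and Psmc6, Psmd5 and Psme4 (lower), and without M10 they were Psma2, Psma8, Psme1 and Psmg4 (higher; Psma8 passed the filter there only through its 35 counts in M9) and Psmc5, Psmc6, Psmd2, Psmd3, Psmd6 and Psme4 (lower).

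**Figure D3:**
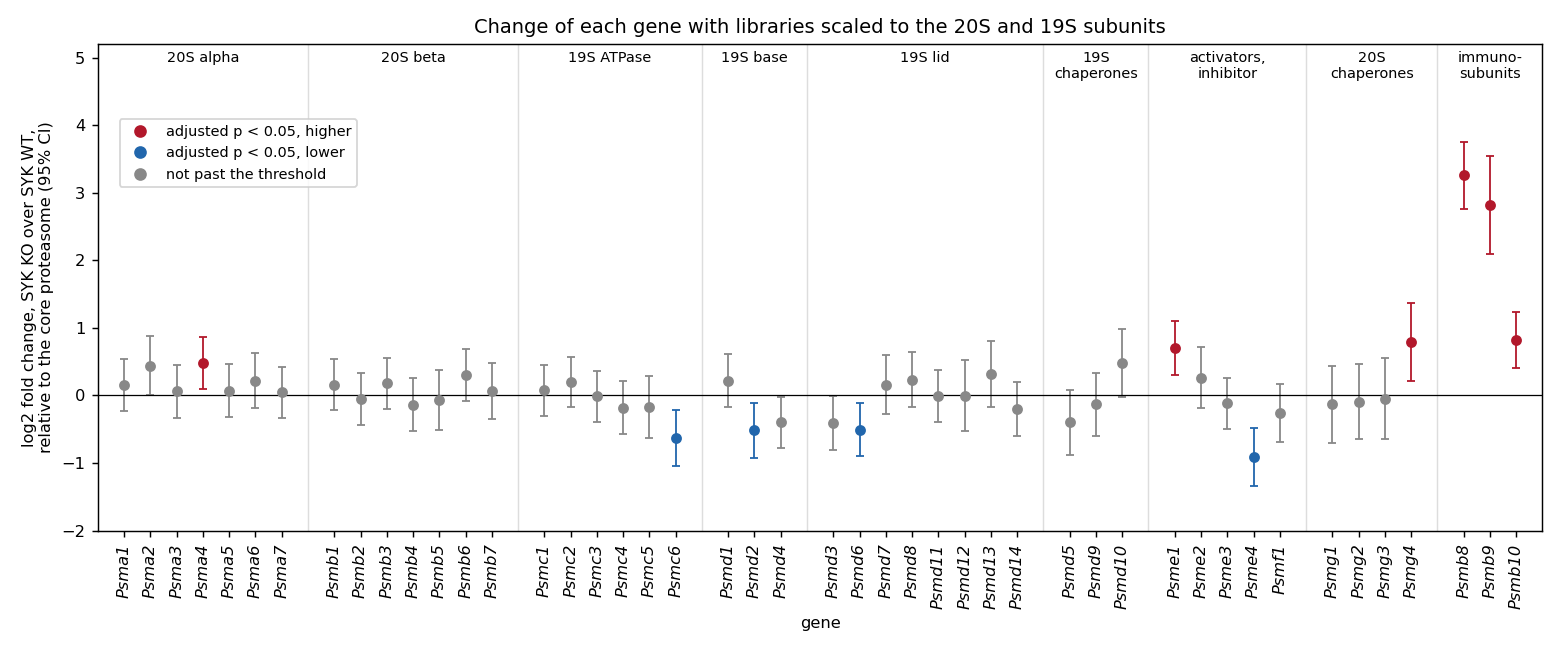
Log2 fold change of each tested proteasome gene and of the 3 immunoproteasome subunits, SYK KO over SYK WT, with libraries scaled to the 20S and 19S subunits; bars are 95% confidence intervals and colors mark an adjusted p under 0.05. Most members lie near 0, where the scaling sets the 31 subunits it uses by construction. Psme4 lies at -0.91, and Psmb8, Psmb9 and Psmb10 stand at 3.26, 2.81 and 0.82, above the highest member, Psmg4 (0.79).

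The ratio of 20S to 19S counts was 0.660 and 0.614 in M7 and M8 and 0.833 and 0.692 in M9 and M10. Both SYK KO values were higher, but the spread between M9 and M10 (SD 0.0997) was close to the difference of the means (0.126). Library M10, which had the larger mitochondrial share, gave the smaller of the SYK KO values, and the part of that share in the ratio was not tested.

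The immunoproteasome subunits, which the members leave out, changed far more than the constitutive catalytic subunits they replace. Psmb8 had 10.4 and 7.53 CPM in M7 and M8 and 157 and 121 CPM in M9 and M10 (log2 fold change 3.96, SE 0.245, adjusted p = 0.000624). Psmb9 had 3.17, 4.35, 51.5 and 35.9 CPM (log2 fold change 3.54, SE 0.283, adjusted p = 0.000834), and Psmb10 had 23.4, 19.5, 61.2 and 61.7 CPM (log2 fold change 1.52, SE 0.170, adjusted p = 0.00181). All 3 also passed the test relative to the core proteasome, at 3.26 (SE 0.209, adjusted p = 0.000673), 2.81 (SE 0.305, adjusted p = 0.00108) and 0.82 (SE 0.174, adjusted p = 0.00912). Exons of Tap1 overlap Psmb9 over 212 bases and exons of Gm20496 overlap Psmb8 over 498 bases, in both cases on the opposite strand, and whether counting used strand is not given in the sources used here, so that reads over these stretches cannot be told apart.

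Levels of different genes were compared per kb of exon, taken as the union of all annotated exons. On this scale Psmb8 made up 4.09% and 3.29% of its pair with Psmb5 in M7 and M8 and 27.3% and 28.4% in M9 and M10. Psmb9 made up 2.03% and 3.01% of its pair with Psmb6 in SYK WT and 14.1% and 11.6% in SYK KO. Psmb10 made up 29.9% and 31.8% of its pair with Psmb7 in SYK WT and 40.3% and 45.8% in SYK KO. Per kb of exon, Psmb5, Psmb6 and Psmb7 were thus the more abundant transcript of each pair in every library. This order depends on the length for 1 pair, since the exon union of Psmb8 has 3381 bases and that of Psmb5 has 899 bases. In counts, Psmb8 (3241 and 2216 in M9 and M10) was above Psmb5 (2296 and 1483) in both SYK KO libraries. Over the 3 pairs together, the immunoproteasome subunits made up 10.6% ± 0.305 (SD, n = 2) of catalytic transcripts in SYK WT and 27.5% ± 0.998 (SD, n = 2) in SYK KO. The difference of 16.9 percentage points was larger than the spread between libraries, at the smallest p that the exact two-sided permutation test can give (0.33), and it was 24.5 points when counts were not divided by exon length. These shares are ratios inside a library and do not depend on the scaling. The CPM sum of the 6 pan-leukocyte markers also had its 2 highest values in M9 and M10. Within SYK WT, M7 had the higher sum (349 against 259 CPM in M8) and the higher share (10.8% against 10.4%). Within SYK KO the order was opposite, with 4221 CPM and 26.8% in M9 and 3025 CPM and 28.2% in M10. The part of leukocyte content in the shares was not tested. Scaled to those 6 markers, the log2 fold change of Psmb8 was 0.33 (adjusted p = 0.405) and that of Psmb9 -0.15 (adjusted p = 0.765), while Psmb10 was at -2.09 (adjusted p = 4.72e-06).

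**Figure D4:**
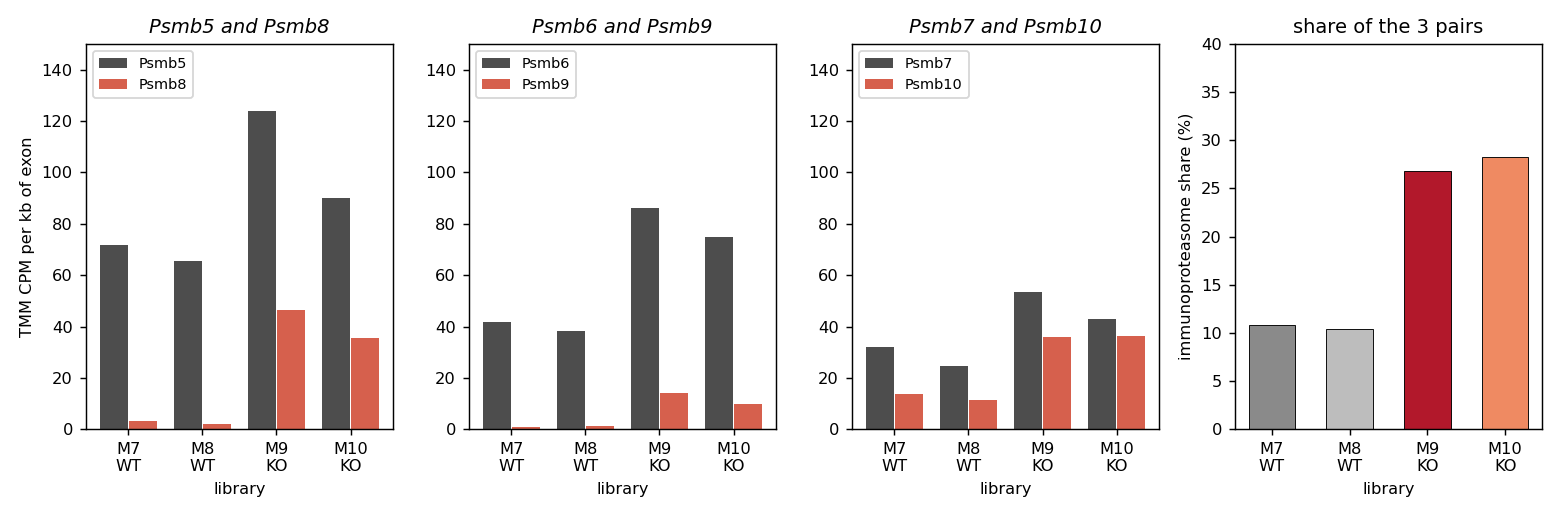
TMM CPM per kb of exon of each constitutive catalytic subunit (dark) and the immunoproteasome subunit that replaces it (red) in each library, and the immunoproteasome share of the 3 pairs together (right). The share is 10.8% and 10.4% in M7 and M8 and 26.8% and 28.2% in M9 and M10, while the constitutive bar is the taller one in every pair and library on this scale; in counts not divided by length, Psmb8 is above Psmb5 in M9 and M10.

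Genes that work with the proteasome were read from lists set beside the members. For comparison with the counts below, 22.7% of all genes tested were called higher. Of 9 further genes of the complex and its partners, 6 were called higher: Pomp; Ubxn1, a ubiquitin-binding cofactor of VCP (log2 fold change 1.40, SE 0.156, adjusted p = 0.00177); Uchl5, a deubiquitinase of the 19S particle (1.14, SE 0.159, adjusted p = 0.00344); Txnl1, a thioredoxin-like protein bound to the 19S particle (1.03, SE 0.176, adjusted p = 0.00658); Sem1, the smallest lid subunit (0.93, SE 0.273, adjusted p = 0.0374); and Akirin2, which guides proteasomes into the nucleus (0.77, SE 0.153, adjusted p = 0.0106). The receptor Adrm1, the deubiquitinase Usp14 and the scaffold Ecpas were not called (log2 fold changes 0.37, 0.43 and -0.17). Sem1 had 146 CPM in M9 and 85.4 CPM in M10, a wider gap than in the other 5 genes called.

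A list of 5 genes was set around the NFE2L1 route, by which cells are known to raise proteasome genes when the protease is inhibited. It also held Nfe2l2, whose protein binds the same element as NFE2L1. Nfe2l2 was the only gene of this list called higher (log2 fold change 0.56, SE 0.155, adjusted p = 0.0304), while 22.7% of all genes tested were. Nfe2l1, Ddi2, Ngly1 and Vcp were not called. Nfe2l1 itself had 132, 110, 167 and 156 CPM in M7, M8, M9 and M10 (log2 fold change 0.42, SE 0.169, adjusted p = 0.0959), and Ddi2, Ngly1 and Vcp, which process its protein, had log2 fold changes of 0.29, 0.14 and 0.59. Of 9 genes for ubiquitin and its shuttle factors, 3 were called higher, against 22.7% of all genes tested. Among the 3, Rps27a (log2 fold change 1.25, SE 0.187, adjusted p = 0.00432) encodes ubiquitin fused to a ribosomal protein, and Ubqln1 (0.76, SE 0.161, adjusted p = 0.0133) encodes a shuttle factor. The polyubiquitin gene Ubb was not called, at 0.68 (adjusted p = 0.0519).

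Of 7 genes of the interferon gamma signal, 4 were called higher, against 22.7% of all genes tested. Among the 4 were the receptor genes Ifngr1 (log2 fold change 1.33, SE 0.192, adjusted p = 0.00385) and Ifngr2 (1.47, SE 0.239, adjusted p = 0.00552). Nlrc5, the activator of MHC class I genes, went from 5.43 and 6.27 CPM in M7 and M8 to 15.4 and 15.5 CPM in M9 and M10 (log2 fold change 1.40, SE 0.244, adjusted p = 0.00692). Irf1 was not called (log2 fold change 0.17, SE 0.154, adjusted p = 0.403), nor were the kinase genes Jak1 (0.20, adjusted p = 0.386) and Jak2 (-0.28, adjusted p = 0.295). All of these directions hold for TMM scaling, and scaled to the macrophage or pan-leukocyte markers the median of all genes stands at -2.78 or -3.60.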

How the data were processed

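Per the labels, polyA-selected RNA of TAMs was sequenced in 2 libraries per genotype, and reads were mapped to mm10 with STAR 2.6.1d and quantified with Salmon 1.4.0 (versions from the submitters' processing notes). The labels describe paired NovaSeq reads, whereas the study's methods describe single HiSeq reads in triplicate. The authors deposited whole-number read counts per Ensembl gene, not normalized, for 54532 genes. GENCODE M21 on GRCm38 gave symbols and exon lengths for 54495. Counts were tested in R 4.3.3 with edgeR 4.0.16 (TMM, filterByExpr, glmQLFit and glmQLFTest, not robust) over 16451 genes, and p-values were adjusted by Benjamini-Hochberg with a limit of 0.05. DESeq2 1.42.0 was an alternative. SE is the log2 fold change over the square root of F. The relative scaling used 31 subunits. Similar genes shared at least 150 bases at 95% identity with a member, and summing with them was added after the data were seen. Intervals and the floor of 3 counts cover counting or fitted error, and PCR copies were not told apart, since no molecular identifiers are described. Members and lists were chosen with earlier results of these data known. The rule for genes named with values took Syk, the catalytic subunits, activators, inhibitor and chaperones, the highest and lowest member of each sub-complex, members that failed the filter, Psmb8, Psmb9, Psmb10, Pomp, Nfe2l1 and pathway genes past the threshold; Psmc5, Psmd4, Psmd12, Psmd14, Psmd3, the relative calls, uncalled pathway genes and single markers were added after their values were seen. Some genes of the lists are counted but not reported here by name. The labels give no batch or pairing.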

Additional observations from a re-analysis of the deposited data

How the results depend on the processing

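The 29 members called higher became 27 with DESeq2 size factors, 26 with its Wald test, 25 without mitochondrial and rRNA-like genes, 32 with every gene of at least 1 count, 28 with at least 10 counts in every library, 29 with pseudogenes or similar genes summed and 36 at an adjusted p under 0.1, but 3 with library size only, 0 with macrophage or pan-leukocyte markers, 3 scaled to the core proteasome and 7 when the change also had to reach 1 on the log2 scale in size. Leaving out each library gave 2 to 35. The count of members called lower was 1, 43, 43 and 4 under those 4 scalings and 0 under the other alternatives. The member median was 0.17, -2.06, -2.88 and -0.0047 under the 4 scalings, and 0.58 to 0.84 on leaving out each library. Relative to the core proteasome, leaving out each library gave 0 to 4 members higher and 0 to 6 lower. The immunoproteasome share differed by 24.5 percentage points without exon length and by 16.2 to 17.6 points on leaving out each library. The 4 scalings move the zero, as their construction sets it. Of all genes tested, 21.1% were called higher with DESeq2 size factors and 20.4% without mitochondrial and rRNA-like genes. With the Wald test 3582 of 26596 genes were called higher. With every gene of at least 1 count it was 4174 of 26596, and with at least 10 counts in every library 3358 of 13725. In leaving out SYK WT libraries, fewer samples enter the fit, and the lone library left in a genotype is assumed to vary like the other genotype. Without M7 or M8, fewer members and also fewer of all genes were called higher than with the 4 libraries. Without M9 or M10, more members and also more of all genes were called higher. The direction of these shifts was thus shared with all genes. On leaving out either SYK WT library, the members called higher fell by a larger share than all genes called higher did.

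Each alternative was recomputed for 30 genes set by the naming rule. Among these, the log2 fold changes that reversed were, with library size only, Psmc6 -0.44, Psmd2 -0.35, Psmd6 -0.33, Psmd5 -0.21, Psmf1 -0.10 and Nfe2l1 -0.12; without mitochondrial and rRNA-like genes, Psmc6 -0.00126; and without SYK KO replicate 1 (M9), Psmc6 -0.086 and Psmd5 -0.070. Leaving out each library gave -0.086 to 0.18 for Psmc6 and -0.070 to 0.56 for Psmd5. Scaled to the core proteasome they were Psmb4 -0.14, Psmb5 -0.069, Psmc6 -0.63, Psmd2 -0.51, Psmd6 -0.50, Psmd5 -0.40, Psmd9 -0.13, Psme3 -0.11, Psmf1 -0.26, Psmg1 -0.13, Psmg2 -0.091, Psmg3 -0.048 and Nfe2l1 -0.28. Scaled to macrophage markers they were Syk -0.00595, Psma4 -1.62, Psma7 -2.06, Psmb4 -2.23, Psmb5 -2.20, Psmb6 -1.80, Psmb7 -2.04, Psmc2 -1.89, Psmc6 -2.74, Psmd1 -1.85, Psmd2 -2.59, Psmd13 -1.74, Psmd6 -2.61, Psmd5 -2.53, Psmd9 -2.23, Psmd10 -1.61, Psme1 -1.40, Psme2 -1.87, Psme3 -2.21, Psmf1 -2.34, Psmg1 -2.20, Psmg2 -2.14, Psmg3 -2.17, Psmg4 -1.31, Psmb10 -1.26, Pomp -1.51 and Nfe2l1 -2.37. Scaled to pan-leukocyte markers they were Syk -0.83, Psma4 -2.44, Psma7 -2.88, Psmb4 -3.06, Psmb5 -3.01, Psmb6 -2.62, Psmb7 -2.86, Psmc2 -2.71, Psmc6 -3.56, Psmd1 -2.68, Psmd2 -3.42, Psmd13 -2.57, Psmd6 -3.43, Psmd5 -3.34, Psmd9 -3.05, Psmd10 -2.44, Psme1 -2.22, Psme2 -2.68, Psme3 -3.03, Psmf1 -3.17, Psmg1 -3.03, Psmg2 -2.97, Psmg3 -2.98, Psmg4 -2.13, Psmb9 -0.15, Psmb10 -2.09, Pomp -2.33 and Nfe2l1 -3.20. Under both marker scalings all 43 tested members were below 0, also those not among the 30. No other alternative reversed any of the 30 genes. Psma8, with 35 of its counts in M9, was called higher where every gene of at least 1 count was kept and without M10, fits that it entered through the genotype in which it is high.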

Other observations

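Proteasome genes with short exons had somewhat larger changes. Across the 43 tested members, exon length and log2 fold change had a Spearman correlation of -0.27, and across the 16443 tested genes with a length it was -0.13. In 4 groups of all genes from the shortest to the longest, the median log2 fold change was 0.33, 0.089, -0.024 and -0.21. Genes are not independent replicates and share the 4 libraries, so these values are a description. Psmg4, with 555 bases of exon, had the largest change, and Psme4, with 8382 bases, the lowest. Other members went against this order, such as Psmb5, with 899 bases and a log2 fold change of 0.64, and Psmd1, with 7265 bases and 0.92.

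The ratio of Psme1 to Psme2 counts was 1.51 and 1.40 in M7 and M8 and 1.77 and 2.17 in M9 and M10, a difference of means of 0.519 with an SD of 0.282 in SYK KO. The cell cycle genes had a median log2 fold change of 0.85, near that of the alpha ring, with summed levels of 499 and 594 CPM in SYK WT and 1017 and 1091 CPM in SYK KO.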
